A study of Mus musculus with 6 samples.

Results

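Heat shock chaperones bind unfolded proteins and help them to fold, refold or reach an organelle, and many of their genes are induced by heat shock factor 1 when damaged proteins build up. In the cytosol, Hsp70 proteins work in cycles of ATP hydrolysis that J-domain proteins (Hsp40) start and that exchange factors of the Hsp110 family reset, and Hsp90 acts later on partly folded clients such as kinases and steroid receptors. In the mitochondrial matrix, the barrel of Hsp60 and its lid Hsp10 enclose newly imported proteins, which are abundant in the mitochondrion-rich adipocytes that cold recruits in white fat.

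The genes described here are 10 heat shock chaperone genes, taken by name from a table of 21900 distinct gene symbols: the Hsp110 genes Hsph1, Hspa4 and Hspa4l, the constitutive Hsp70 gene Hspa8, the Hsp90 genes Hsp90aa1 and Hsp90ab1, the J-domain genes Dnaja1 and Dnajb1, and the chaperonin genes Hspd1 (Hsp60) and Hspe1 (Hsp10). All 10 were in the table and passed the filter on low values, a control or knockout mean of 1 FPKM or more. FPKM is a read count scaled for exon length and library depth, and it was measured here in stranded mRNA libraries of inguinal white adipose tissue, the fat pad of the groin. All 6 samples came from C57BL/6 mice, 2 months old, kept at 22 °C on chow and then at 4 °C for 7 days. The 3 controls are labelled Foxp4fl/fl. The 3 knockouts are labelled Foxp4AdipoQΔ/Δ: by this name Foxp4, a forkhead transcription factor, was removed by Cre under the adiponectin promoter, a promoter of mature fat cells. The controls are labelled with the floxed gene and no Cre, so effects of Cre itself and of losing Foxp4 cannot be told apart. The labels do not say whether a sample was 1 mouse or a pool, and the spread behind each p-value may be technical.

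Foxp4 stood at 5.76, 4.01 and 4.62 FPKM across controls and 1.92, 1.71 and 1.64 FPKM across knockouts, without overlap (adjusted p = 0.070 in limma). The allele's name points to adipocytes, and the samples are whole tissue. The libraries held 13192413 to 16007990 reads recovered from the FPKM values. Behind each chaperone value stood 360 (Hsph1) to 15079 (Hspa8) of these reads. Over all 10787 genes tested, 1 gene (0.00927%) passed an adjusted p of 0.05 in limma, and it was none of the 10.

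Heat shock factor 1 binds heat shock elements, which are alternating GAA and TTC units. Promoter windows of 300 bases, from 250 before a RefSeq transcription start to 50 from it on (build GRCm38.p6), were at hand for 7 of the 10 genes: Hsph1, Hspa4, Hspa4l, Dnaja1, Dnajb1, Hspd1 and Hspe1. Windows of Hspa8, Hsp90aa1 and Hsp90ab1 were not analysed here. On both strands, 3 of the 7 genes held an element of 13 letters, 3 alternating units of GAA and TTC with 2 free bases between units, against 0.662% of the 27025 symbols with a window. They were Hsph1, Hspd1 and Hspe1. The 8-letter form GAANNTTC or TTCNNGAA, which lies inside the longer element, was in the windows of 4 of the 7 genes, Dnaja1 being the fourth, against 17.0% of symbols. The CCAAT box (CCAAT or ATTGG), a general promoter element, was in windows of 4 of the 7 genes, against 41.1% of symbols. The elements are shown because they set these 3 genes apart from Hspa4, Hspa4l and Dnajb1, whose windows hold neither heat shock form. Only exact units within these windows were searched, so an absence does not show that a gene lacks an element. Hspd1 and Hspe1 share their element, which counts for both genes. Each line gives 30 bases, 5′ to 3′, with the matched units in capitals.
Hspd1, minus strand: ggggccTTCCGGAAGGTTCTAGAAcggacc
Hspe1, plus strand: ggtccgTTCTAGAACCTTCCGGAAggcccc
Hsph1, minus strand: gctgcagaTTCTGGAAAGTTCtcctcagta
Chordc1, plus strand: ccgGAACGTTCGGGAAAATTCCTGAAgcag
Dnajb6, plus strand: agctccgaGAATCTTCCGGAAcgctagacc

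The lines of Hspd1 and Hspe1 are the same bases, chr1:55088053-55088082, read in opposite directions, from the region that the genes share at their starts. Their element of 18 bases (55088059 to 55088076) begins 89 bases before the RefSeq start of Hspe1 and 144 bases before 1 of the 2 RefSeq starts of Hspd1. It also lies in the untranslated first exon of a longer Hspd1 transcript in GENCODE. The Hsph1 element (149636288 to 149636300, within the printed bases chr5:149636279-149636308) lies in an untranslated 5′ exon of the gene, 15 bases after the nearest RefSeq start. Chordc1 (printed bases chr9:18292260-18292289) is a co-chaperone of Hsp90, and Dnajb6 (printed bases chr5:29735844-29735873) is another J-domain gene. They were the only further genes with the 13-letter element among 175 genes with a window in the other lists described below. The Dnajb6 element lies in an untranslated exon of that gene and in the coding sequence of Gm5129 on the other strand. A match describes letters in a window and does not show binding. Among all tested genes with a window, the 50 with the 13-letter element had a median log2 fold change of -0.068 and the 8551 without it -0.081.

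All 10 chaperone genes had a higher mean in the knockouts than in the controls, by 1.02-fold (Hsp90ab1) to 1.80-fold (Hsph1), and all 10 fitted log2 fold changes were above 0, against 34.0% over all genes tested. None of the 10 passed an adjusted p of 0.05 over all genes in limma. Hsph1, an exchange factor for Hsp70, came nearest (adjusted p = 0.077) and was the 1 member under 0.10, a level that 5.48% of all genes reached, 1.77% with a higher and 3.71% with a lower value. At an unadjusted p under 0.05, 4 of 10 were higher (Hsph1, Hspa4, Hspa8 and Hspd1) and 0 were lower, against 6.98% higher and 17.1% lower over all genes tested. After median-of-ratios scaling 8 of 10 were higher, against 13.0% of all genes tested. Of all genes past that level, 29.0% were higher without this scaling and 58.4% with it. In the same 4 genes every knockout lay above every control, which held for 8.48% of all genes, whereas the reverse held for 0 of 10 and for 22.7% of all genes. The median log2 fold change of the 10 genes was 0.32, against -0.082 over all genes tested. The 10 genes were chosen with earlier results of these data known, so these comparisons describe them and test no enrichment. In bulk tissue, a change in the number of cells of a type and a change in RNA per cell cannot be told apart.

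**Figure D1:**
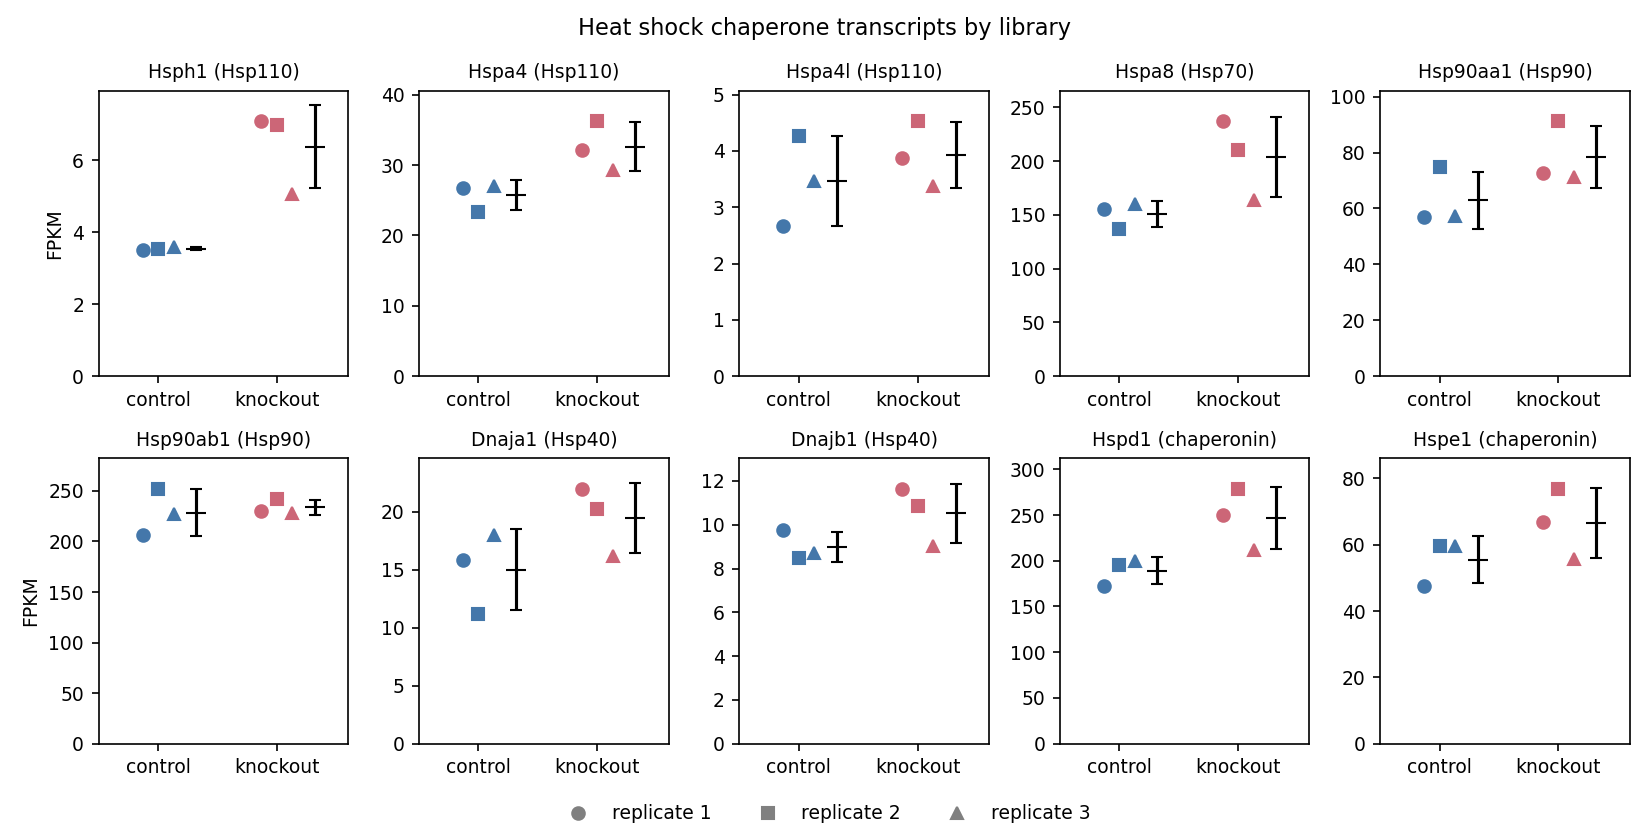
FPKM of each of the 10 chaperone genes in the 3 control (blue) and 3 knockout (red) libraries, with marker shape giving the replicate number and black bars the mean and SD (n = 3). The groups are apart in Hsph1, Hspa4, Hspa8 and Hspd1, and knockout replicate 3 (triangle) is the lowest knockout in all 10 panels.

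**Figure D2:**
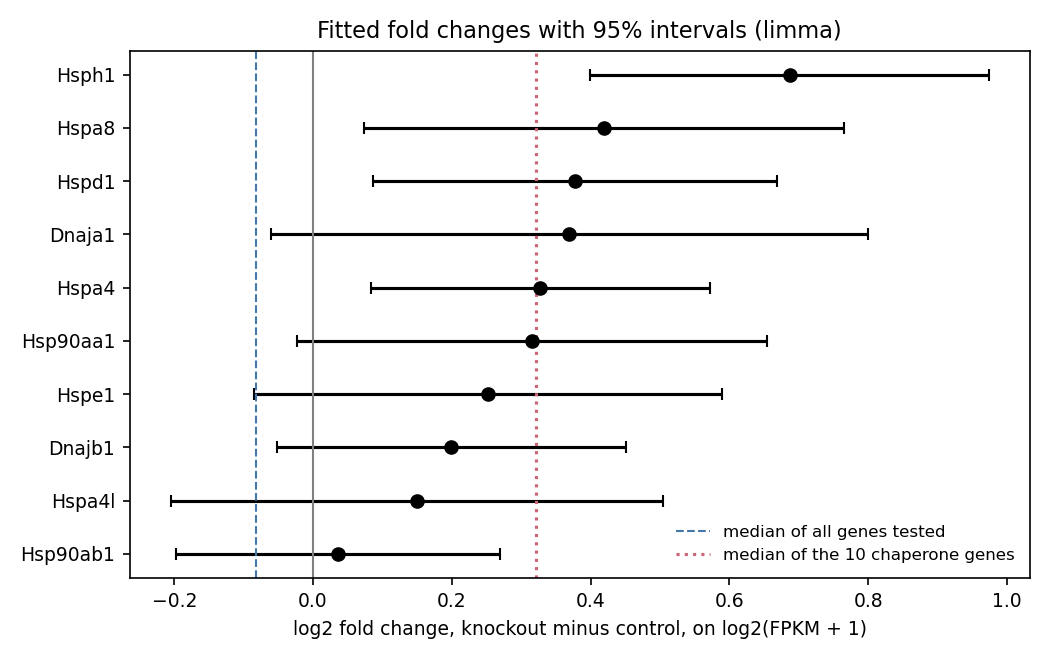
Fitted log2 fold change, knockout minus control, on log2(FPKM + 1) with its 95% interval from limma. The interval lies above 0 for Hsph1, Hspa8, Hspd1 and Hspa4 and spans 0 for the other 6 genes, whereas the median of all genes tested (dashed) is at -0.082.

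The Hsp110 proteins act as nucleotide exchange factors that let Hsp70 release its client. Hsph1 (chromosome 5, 149614287 to 149636376, minus strand) stood at 3.52, 3.54 and 3.59 FPKM in the controls, against 7.09, 7.00 and 5.06 FPKM in the knockouts. The controls lay almost on top of each other, at 3.55 ± 0.035 FPKM (SD, n = 3), while the knockouts spread over 6.38 ± 1.14 FPKM (SD, n = 3). The fit put Hsph1 0.69 higher on the log2 scale (SE 0.12, 95% interval 0.40 to 0.97), the largest value of the 10. On this scale the pseudocount of 1 understates the change of a gene at a few FPKM, and limma-voom on recovered reads gave 0.82 (adjusted p = 0.068).

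Hspa4 (chromosome 11, 53259814 to 53300457, minus strand), the most abundant Hsp110 transcript here, stood at 26.8, 23.3 and 27.1 FPKM across controls and 32.1, 36.2 and 29.3 FPKM across knockouts. Every knockout was above every control, with a log2 fold change of 0.33 (SE 0.10, adjusted p = 0.13 in limma). Hspa4l (chromosome 3, 40744495 to 40796103, plus strand), a close relative of Hspa4, stood at 2.67, 4.27 and 3.47 FPKM in the controls, against 3.87, 4.53 and 3.38 FPKM in the knockouts. Here the groups overlapped, and the log2 fold change of 0.15 (95% interval -0.21 to 0.50) had an adjusted p of 0.56 in limma. Single libraries moved it widely: it was 0.016 without control replicate 1 and 0.063 without knockout replicate 2. The highest value, 0.28, came without control replicate 2, and it was 0.23 without knockout replicate 3.

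Hspa8 (chromosome 9, 40800984 to 40810087, plus strand) encodes Hsc70, the constitutive cytosolic Hsp70, which also serves clathrin uncoating and chaperone-mediated autophagy. It stood at 155, 137 and 160 FPKM across controls and 237, 210 and 164 FPKM across knockouts. The third knockout lay just above the highest control, whereas the other 2 were well above it. On the log2 scale the fitted difference was 0.42 (SE 0.15, 95% interval 0.074 to 0.77, adjusted p = 0.15 in limma). It was 0.57 without knockout replicate 3 and 0.30 without knockout replicate 1.

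Cytosolic Hsp90 has an isoform from each of a pair of genes. Hsp90aa1 (chromosome 12, 110690605 to 110702728, minus strand), the isoform known as stress-inducible, stood at 57.0, 74.8 and 57.1 FPKM in the controls, against 72.8, 91.2 and 71.3 FPKM in the knockouts. Control replicate 2 was higher than 2 of the 3 knockouts, so the groups overlapped (log2 fold change 0.32, SE 0.14, adjusted p = 0.23 in limma). Without knockout replicate 2 the value was 0.20. Hsp90ab1 (chromosome 17, 45567775 to 45573271, minus strand), the constitutive isoform, stood at 206, 252 and 227 FPKM across controls and 230, 242 and 228 FPKM across knockouts. All knockouts lay inside the control range, and the interval of its log2 fold change of 0.036 ran from -0.20 to 0.27. Without control replicate 1 that value was -0.035, the only negative one among 128 fits of a member under the alternatives tried.

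J-domain proteins hand clients to Hsp70 and stimulate its ATPase. Dnaja1 (chromosome 4, 40722150 to 40737149, plus strand) stood at 15.9, 11.2 and 18.0 FPKM in the controls, against 22.0, 20.2 and 16.2 FPKM in the knockouts, and the lowest knockout lay below the highest control. Its log2 fold change of 0.37 (SE 0.18, adjusted p = 0.26 in limma) had the widest error of the 10 and was 0.18 without control replicate 2. Dnajb1 (chromosome 8, 83608193 to 83612653, plus strand), a partner of Hsp70 that is strongly induced by heat, stood at 9.77, 8.50 and 8.71 FPKM across controls and 11.7, 10.9 and 9.03 FPKM across knockouts. Knockout replicate 3 was below control replicate 1, and the fitted log2 difference of 0.20 (SE 0.11) had an adjusted p of 0.30 in limma. It was 0.13 without knockout replicate 1.

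The chaperonin of the mitochondrial matrix is built from Hsp60 and Hsp10, whose genes lie head to head on chromosome 1. Hspd1 (55077835 to 55088243, minus strand) stood at 172, 196 and 199 FPKM in the controls, against 250, 279 and 212 FPKM in the knockouts, without overlap (log2 fold change 0.38, SE 0.12, adjusted p = 0.14 in limma). Hspe1 (55088132 to 55091307, plus strand) stood at 47.5, 59.6 and 59.6 FPKM across controls and 66.8, 76.9 and 55.8 FPKM across knockouts. Here knockout replicate 3 lay between the controls (log2 fold change 0.25, SE 0.14, adjusted p = 0.32 in limma), and the value was 0.14 without knockout replicate 2. The annotated genes overlap at their starts and the strand setting of the counting is not given. GENCODE M21 also holds 5 pseudogenes named after Hspd1, 6 after Hspe1 and 1 after Dnaja1 that could share their reads, so these 3 levels are uncertain. Only pseudogenes that carry a gene's own name were searched. Copies under other names were not counted, and they could affect the levels of the other chaperone genes as well.

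Across the 10 genes the knockouts were not alike. Knockout replicate 3 was the lowest knockout for 10 of 10 genes, while the highest was replicate 2 for 6 and replicate 1 for 4. Against the control mean, the median difference over the 10 genes on log2(FPKM + 1) was 0.33 in knockout replicate 1, 0.48 in replicate 2 and 0.12 in replicate 3, and it lay between -0.070 and 0.045 in the controls. Summed over the 10 genes, FPKM was 696, 770 and 764 in the controls and 933, 979 and 794 in the knockouts (means 743 ± 40.8 and 902 ± 96.2, SD, n = 3), with every knockout above every control. Abundant genes weigh most in this sum: Hsp90ab1, Hspd1 and Hspa8 had control means of 229, 189 and 151 FPKM. Hspd1 and Hspa8 are already counted above as genes without overlap, so the sum is no separate result. The summed FPKM of the Hsp90 pair had a mean 1.07 times that of the controls, against 1.25 for the J-domain pair, 1.28 for the chaperonin pair, 1.31 for the Hsp110 genes and 1.35 for Hspa8. The count of 4 genes higher at an unadjusted p under 0.05 was 7 without knockout replicate 3 (7.29% of all genes), 2 without knockout replicate 1 (4.84%) and 1 without knockout replicate 2 (3.73%). With control replicate 1 left out it was 3 (5.10%), with control replicate 2 left out 3 (6.31%), and with control replicate 3 left out 5 (8.33%). Hsph1 was counted in all 6.

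**Figure D3:**
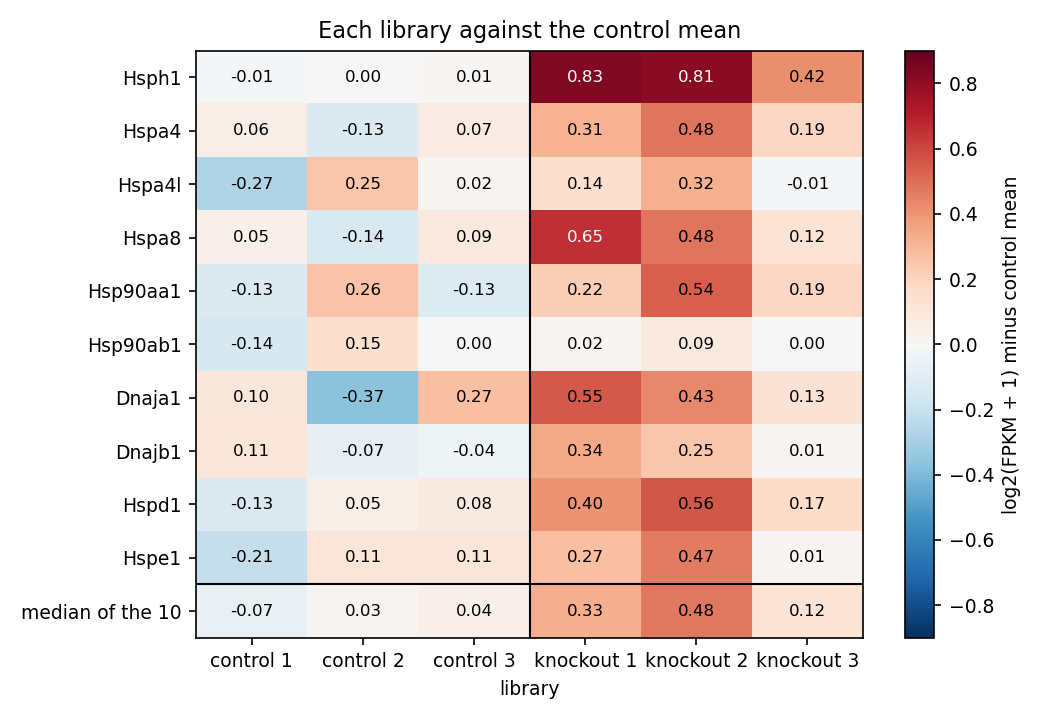
Difference of each library from the control mean on log2(FPKM + 1) for the 10 chaperone genes (rows) in the 6 libraries (columns), with the median of the 10 in the last row. Knockout replicates 1 and 2 are the most strongly raised columns, at medians of 0.33 and 0.48, and knockout replicate 3 is at 0.12.

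Within families the balance of transcripts was compared as a ratio of FPKM in each library, for all 6 pairs that a family allows. An exact two-sided permutation test of 3 against 3 libraries cannot give a p below 0.10, and 4 pairs reached it (0.15 adjusted over the 6 pairs), so none passed 0.05. Pairs that share a gene, such as those of Hsph1, are not independent. The share of all gene pairs without overlap was not computed. Among single genes tested, 8.48% had all knockouts above all controls and 22.7% had all below. Hsph1 stood at 0.131, 0.152 and 0.132 of Hspa4 in the controls and at 0.221, 0.193 and 0.173 in the knockouts. Hsp90aa1 stood at 0.276, 0.296 and 0.252 of Hsp90ab1 in the controls and at 0.316, 0.376 and 0.312 in the knockouts. Both ratios were higher in each knockout than in any control. Hspd1 stood at 3.62, 3.28 and 3.35 times Hspe1 in the controls and at 3.74, 3.63 and 3.80 times in the knockouts, also without overlap. The lowest knockout (3.625) lay barely above the highest control (3.621), and the levels of both genes are uncertain, as said above. The fourth pair without overlap was Hsph1 to Hspa4l, at means of 1.06 ± 0.24 and 1.62 ± 0.18 (SD, n = 3). Dnaja1 to Dnajb1 (exact permutation p = 0.50) and Hspa4 to Hspa4l (exact permutation p = 0.70) overlapped.

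The likeness of pairs over the 6 libraries is given as Pearson's r on log2(FPKM + 1), a description of 6 libraries that share their scaling. Hspd1 and Hspe1 had r = 0.94, and 0.99 after the mean of each group was taken out. Hspa8 lay close to Dnajb1 (0.93; 0.89 within groups) and Hsph1 (0.93; 0.88 within groups), while Hspa4l lay close to Hsp90ab1 (0.94; 0.95 within groups). Hspa8 and Hsp90ab1 had r = 0.027. Hspa4, Hspa8, Dnaja1 and Dnajb1 had their lowest value of all 6 libraries in control replicate 2, the control in which Hspa4l, Hsp90aa1, Hsp90ab1 and (by under 0.05 FPKM) Hspe1 were highest.

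Of 5962 other genes at a mean of 5 FPKM or more, the 8 whose pattern was most like the mean standardized value of the 10 chaperone genes were Snrnp25 (r = 0.997), Mob1b (0.996), Dnajc15 (0.996), Coa6 (0.994), Fabp3 (0.992), Rom1 (0.992), Coa3 (0.989) and Grsf1 (0.988). With 6 libraries high values are common: 324 genes had r above 0.9 and 140 below -0.9. Dnajc15 is a J-domain protein of the mitochondrial inner membrane, Coa3 and Coa6 serve the assembly of cytochrome c oxidase, Grsf1 binds RNA in mitochondria, and Fabp3 is a fatty acid binding protein of oxidative tissues. Snrnp25 and Mob1b, which had the highest r, and Rom1 are not described here. The share of mitochondrial genes among the 324 was not computed, so these functions name no shared theme. Fabp3 stood at 248, 368 and 391 FPKM in the controls, against 741, 866 and 411 FPKM in the knockouts. It was picked for its likeness to the chaperone pattern, so its low value in knockout replicate 3 follows from that choice.

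The counts of the further lists stand against 6.98% of all genes tested higher and 17.1% lower at an unadjusted p under 0.05 in limma. These lists too were chosen with earlier results known, so the counts are a description. Of 7 other cytosolic Hsp70 genes, 5 were tested and 0 were higher or lower at an unadjusted p under 0.05 (median log2 fold change -0.039, and 0.043 after median-of-ratios scaling). The median ran from -0.11 without control replicate 2 to 0.079 without control replicate 1, and 1 gene was higher without control replicate 3. Hspa1a and Hspa1b, the heat-inducible Hsp70 genes, were scarce: Hspa1a, chosen after seeing its values, lay between 0.18 and 0.58 FPKM over the 6 libraries, and Hspa1b averaged 1.34 FPKM in controls against 1.18 FPKM in knockouts. These copies are nearly identical, so their levels are uncertain. Hspa12b had 14.8 and 16.8 FPKM and Hspa14 had 6.01 and 5.81 FPKM. Of 5 small heat shock proteins tested out of 9, 1 was higher, Hspb8 (52.8 ± 3.59 and 65.1 ± 2.76 FPKM, SD, n = 3; adjusted p = 0.11 in limma), a partner of Bag3 in the clearance of aggregates. Hspb1 had 47.8 and 55.0 FPKM and the crystallin gene Cryab 57.1 and 67.7 FPKM, both with overlapping groups. The count was 3 without control replicate 1 and 2 without knockout replicate 3.

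Co-chaperones of Hsp90 held 3 genes higher and 0 lower of 17 tested out of 18 (median 0.075). Stip1, the adaptor that joins Hsp70 to Hsp90, stood at 29.3, 28.9 and 27.9 FPKM across controls and 37.3, 37.7 and 36.2 FPKM across knockouts. Both groups were tight and far apart, knockout replicate 3 included (log2 fold change 0.36, SE 0.068, adjusted p = 0.079 in limma). Ahsa1, which stimulates the Hsp90 ATPase, had means of 10.5 and 12.2 FPKM and Pih1d1 lay at 8.93 to 9.82 FPKM in controls and 10.1 to 11.7 FPKM in knockouts, both without overlap. Chordc1, shown above for its heat shock element, had 5.39 ± 0.91 and 6.64 ± 0.38 FPKM (SD, n = 3) with overlap. After median-of-ratios scaling the count was 7 higher of 17. It was 1 without control replicate 1, control replicate 2 or knockout replicate 2, and also 1 with the replicate number as a block. Without knockout replicate 1 it was 2 higher and 1 lower, and without knockout replicate 3 it was 2 higher.

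Of 8 co-factors of Hsp70 tested out of 9, 0 were higher or lower at an unadjusted p under 0.05 (median -0.052, and 0.027 after median-of-ratios scaling, when 1 was higher), with means in controls and knockouts of 175 and 199 FPKM for the exchange factor Bag1, 25.3 and 22.5 FPKM for St13, and 15.0 and 13.5 FPKM for the ubiquitin ligase Stub1. Of 14 further J-domain genes, 0 were higher and 1 lower (median -0.057, and 0.027 after median-of-ratios scaling). That gene, Dnajc8, known for its link to splicing, averaged 20.8 ± 0.11 FPKM in controls against 16.6 ± 0.63 FPKM in knockouts (SD, n = 3; adjusted p = 0.084 in limma). Dnajc9 had 6.15 and 5.32 FPKM. Dnajb6, which carries the heat shock element printed above, stood at 15.4, 15.1 and 14.5 FPKM in the controls, against 13.9, 13.7 and 13.9 FPKM in the knockouts. Of the 14 genes of the cytosolic chaperonin TRiC and of prefoldin, 2 were higher and 0 lower (median 0.043): Pfdn4 had 1.67 and 2.27 FPKM and Cct3 14.0 and 16.2 FPKM. Pfdn5 had 45.9 and 40.2 FPKM, lower in every knockout. Leaving out 1 library gave 0 (without knockout replicate 1) to 2 higher for TRiC and prefoldin, with 2 lower without control replicate 1. It gave up to 2 lower for the J-domain genes (without knockout replicate 1) and 1 lower for the co-factors of Hsp70 without control replicate 3.

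In the mitochondrion, imported proteins pass from the matrix Hsp70 to Hsp60. Of 10 further mitochondrial chaperones and co-factors, 4 were higher and 0 lower (median 0.11). Hspa9, the matrix Hsp70 known as mortalin, stood at 212, 257 and 221 FPKM across controls and 298, 311 and 278 FPKM across knockouts. Its J-domain partner Dnaja3 had 44.3 ± 5.92 and 61.8 ± 7.98 FPKM and its exchange factor Grpel1 46.1 ± 2.05 and 56.9 ± 5.92 FPKM (SD, n = 3). The fourth was Dnajc15, with means of 20.7 and 24.5 FPKM. All 4 were apart between groups, with adjusted p of 0.11 for Dnaja3, 0.12 for Hspa9, 0.14 for Grpel1 and 0.18 for Dnajc15 in limma. Trap1, the mitochondrial Hsp90, averaged 95.7 ± 6.64 and 95.1 ± 3.25 FPKM (SD, n = 3), and was named after its values were seen. Of 8 mitochondrial quality-control proteases, 2 were higher and 1 lower (median 0.072). Lonp1 had 47.8 and 56.6 FPKM, Afg3l2 had 19.0 and 22.6 FPKM, and Htra2, a protease of the intermembrane space, was lower at 8.44 and 6.81 FPKM. Leaving out 1 library gave 2 (without knockout replicate 2) to 4 higher for the mitochondrial chaperones, with 1 lower without control replicate 1. For the proteases 0 were higher without control replicate 1, control replicate 3, knockout replicate 1 or knockout replicate 2.

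**Figure D4:**
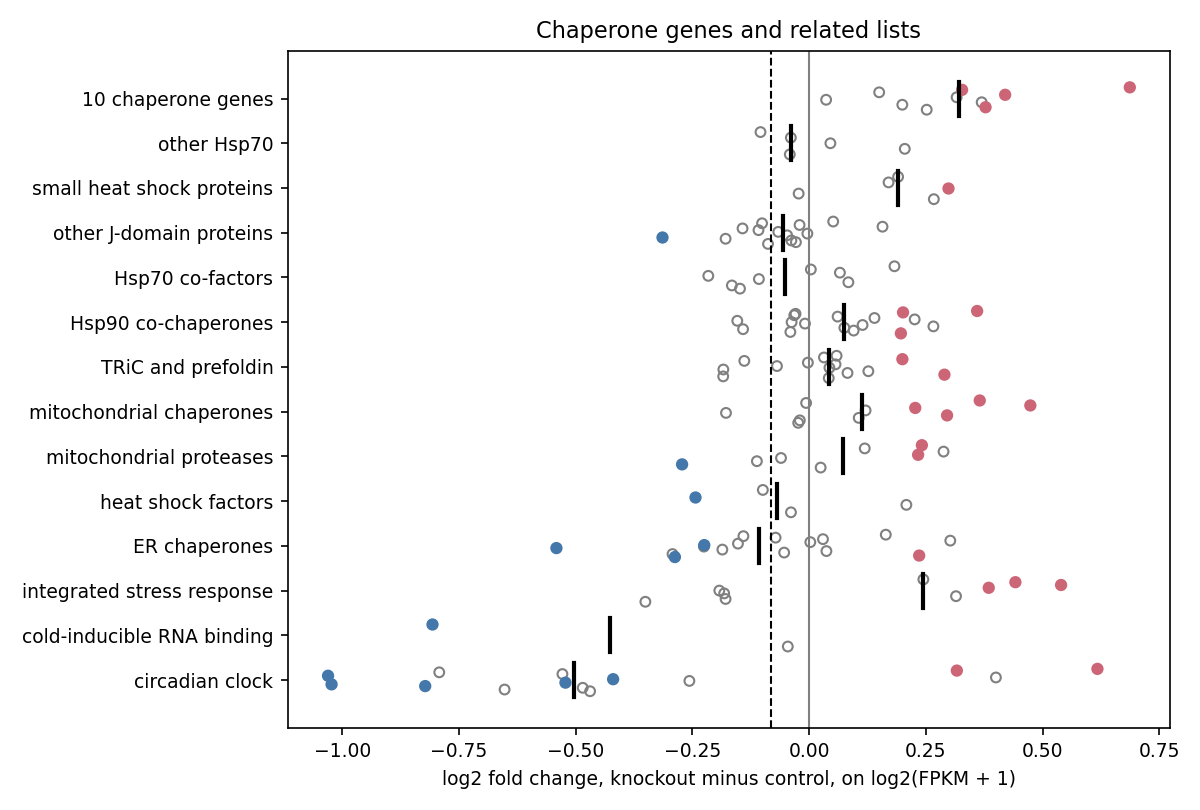
Fitted log2 fold change of each tested gene in the 10 chaperone genes and 13 related lists, with filled points for an unadjusted p under 0.05 in limma (red higher, blue lower), open points for the rest, and a black bar for the median of each list. The dashed line is the median of all genes tested (-0.082). The 10 chaperone genes all lie right of 0, and so do 4 of 5 small heat shock proteins. Other Hsp70 (2 of 5 right of 0), J-domain (2 of 14) and endoplasmic reticulum chaperone genes (6 of 16) lie on both sides. Thermogenic (8 of 8) and skeletal muscle genes (7 of 7), not drawn, were also above 0. After median-of-ratios scaling, other Hsp70 had 4 of 5 above 0, J-domain genes 8 of 14 and endoplasmic reticulum chaperones 8 of 16.

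Of 4 heat shock factor genes and their regulator tested out of 5, 0 were higher and 1 lower, Hsf2, at 2.03 and 1.56 FPKM (adjusted p = 0.16 in limma). The median was -0.069, and after median-of-ratios scaling it was 0.015 with 0 lower. The count was also 0 lower without control replicate 1, knockout replicate 2 or knockout replicate 3, and 1 was higher without knockout replicate 1. Hsf1 stood at 3.79, 2.61 and 2.64 FPKM in the controls, against 2.94, 2.75 and 2.47 FPKM in the knockouts, with overlap. Hsf4 had means of 2.07 and 2.56 FPKM. The activity of heat shock factor 1 is set largely by its protein state, which RNA does not measure. Of 16 chaperones of the endoplasmic reticulum, 1 was higher and 3 lower (median -0.11), near the shares of all genes tested (6.98% higher and 17.1% lower). After median-of-ratios scaling 3 were higher and 2 lower, against 1404 and 1001 of all 10776 genes tested. Pdia4, a disulfide isomerase, averaged 29.9 ± 0.82 FPKM in controls against 20.3 ± 2.40 FPKM in knockouts (SD, n = 3; adjusted p = 0.076 in limma), Dnajc10 had 10.7 and 9.01 FPKM and Creld2 10.2 and 8.18 FPKM. The higher gene was Manf (4.56 to 5.09 FPKM in controls, 5.16 to 6.47 FPKM in knockouts), chosen after seeing its values. The lower count was 1 without control replicate 3 or knockout replicate 2, and the higher count ran from 0 (without control replicate 1, knockout replicate 2 or knockout replicate 3) to 2 (without knockout replicate 1). Of 9 targets of the integrated stress response tested out of 10, 3 were higher and 0 lower (median 0.24): Atf5, a factor tied to mitochondrial protein stress, had 57.7 ± 5.80 and 78.4 ± 2.13 FPKM, Ddit3 had 5.23 ± 0.76 and 8.03 ± 0.82 FPKM (SD, n = 3), and Trib3 had 4.61 and 6.44 FPKM. The log2 fold change was above 0 for 5 of these 9 targets. It was below 0 for Asns (-0.19), Chac1 (-0.18), Psat1 (-0.18) and Phgdh (-0.35), named after their values were seen. Without 1 library the stress response targets had 2 to 4 higher, and 1 was lower without control replicate 2 or control replicate 3.

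Immediate early genes can respond to handling of an animal or tissue. Of 10 tested out of 12, 0 were higher and 1 lower (median -0.15), Btg2, at 8.98 and 5.58 FPKM. Atf3 had 1.90 and 2.55 FPKM and Junb 12.2 and 8.03 FPKM, with overlap. Control replicate 3 stood apart in this list, with a summed FPKM of 138 against 51.8 to 77.0 in the other 5 libraries, and without it the direction turned: 3 were higher and 1 lower (median 0.14). Without control replicate 2, 2 were lower (median -0.49), and without knockout replicate 1 or knockout replicate 2, 0 were. Chaperone genes are also known to follow body temperature over the day, opposite to the cold-inducible RNA-binding protein gene Cirbp. Cirbp stood at 22.2, 28.9 and 18.6 FPKM across controls and 10.96, 12.6 and 14.6 FPKM across knockouts, so that all knockouts were below all controls (log2 fold change -0.81, SE 0.17, adjusted p = 0.082 in limma). Rbm3, its close relative, had 20.6 ± 2.18 and 19.9 ± 1.96 FPKM (SD, n = 3). Of 14 clock genes tested out of 15, 2 were higher and 5 lower (median -0.50). Nr1d2 had 23.1 and 15.8 FPKM and Cry2 9.46 and 6.81 FPKM, both without overlap, and Per3 9.13 and 3.83 FPKM with overlap. The others counted, named after their values were seen, were Dbp and Tef (lower) and Clock and Arntl (higher). The lower count ran from 2 (without control replicate 1 or knockout replicate 3) over 3 (without knockout replicate 2) to 8 (without control replicate 2 or knockout replicate 1). The higher count was 0 without control replicate 1 or knockout replicate 2 and 1 without control replicate 3 or knockout replicate 3, and the median ran from -0.74 to -0.30. The labels give no hour of dissection and no body temperature, and their part in the chaperone values was not tested.

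Markers of the cell types in the pad were counted in the same way, at an unadjusted p under 0.05, against 6.98% higher and 17.1% lower over all genes tested. Thermogenic adipocyte genes had 4 of 8 higher and 0 lower, their summed FPKM was 1490 to 3299 in controls and 3351 to 5002 in knockouts, and knockout replicate 3 was the lowest knockout there as well. They were Ppargc1a (6.37 and 15.0 FPKM), Elovl3 (76.0 and 186 FPKM) and, named after seeing their values, Dio2 and Ucp1. Without 1 library 3 to 6 were higher. Macrophage markers had 9 of 9 lower, with sums of 583 to 777 and 368 to 478 FPKM (Cd14 at 11.3 and 6.53 FPKM, C1qa at 130 and 79.2 FPKM). Fibroblast markers had 5 of 8 lower, with sums of 353 to 754 and 313 to 384 FPKM (Dpp4 at 10.8 to 15.2 and 7.05 to 9.13 FPKM, Dcn at 171 and 124 FPKM). The other fibroblast markers counted, named after seeing their values, were Efemp1, Pdgfra and Pi16. The count was 3 without control replicate 3 or any 1 of the knockouts. Mature adipocyte markers, which show the tissue to be fat, had 2 of 8 lower (Adipoq at 1212 and 872 FPKM, Cfd at 6162 and 4000 FPKM), with sums of 11107 to 12039 and 8597 to 9280 FPKM. Endothelial markers had 2 of 6 lower (Vwf and Tek), with sums of 65.2 to 120 and 70.2 to 84.2 FPKM. Without control replicate 3, which had the highest sum, 1 was higher and 1 lower, and 1 was lower without knockout replicate 1 or knockout replicate 2.

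Skeletal muscle markers varied widely: 0 of 7 tested were higher or lower (median log2 fold change 1.09), and their sums were 14.8 to 61.5 FPKM in controls and 18.8, 89.4 and 277 FPKM in knockout replicates 1, 2 and 3, with Tnnc2 listed at 0 in all 6. Without knockout replicate 1, 6 of 7 were higher (median 1.85), and without knockout replicate 3 the median was 0.29 with 0 of 6 higher. Knockout replicate 3, with the most muscle transcripts, had the lowest chaperone values among the knockouts. The other knockouts went the opposite way: replicate 2 had more muscle transcripts than replicate 1 and a higher chaperone median (0.48 against 0.33). Red cell markers had 0 of 5 higher or lower (sums of 977 to 1951 and 580 to 1099 FPKM). B and T cell markers had 0 of 2 tested out of 8 (sums of 3.47 to 5.95 and 2.68 to 4.79 FPKM, with Cd3d listed at 0 in a library). None of 6 epithelial markers averaged 1 FPKM in either group, and Krt14 was listed at 0 in all 6. The part of these cell types in the chaperone values was not tested.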

How the data were processed

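Stranded mRNA libraries of 6 samples, 3 per group, were made from total RNA and sequenced by Illumina, per the labels' protocols. Tools named in the submitters' processing notes are cutadapt, HISAT2 and HTSeq, with the build mm10. Their versions and settings, and the annotation, are not given in these sources. The authors deposited FPKM per gene. The unit was read from the values: FPKM times merged exon length (GENCODE M21) gave whole reads (tolerance 0.05) for 97.9 to 98.0% of values up to 50 reads, with 1 scale factor per library. The table has 21936 rows, and 36 rows that repeat a symbol were left out.

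Genes whose control or knockout mean was 1 FPKM or more were tested with limma 3.58.1 under R 4.3.3 on log2(FPKM + 1), with a trend of variance on level. Genotype was the sole term over the 6 libraries, with Benjamini-Hochberg adjustment over all 10787 genes at 0.05. A run on simulated data, with noise drawn gene by gene, checked only that planted fold changes were returned on average. It does not cover differences that a library shares across genes. A gene list is described by counts at an unadjusted p under 0.05 and its median. The 10 genes and the 23 other lists were chosen with earlier results of these data known. Named genes are the 10, the up to 3 genes of each list (2 for cell types) with the smallest unadjusted p, and the 8 most alike in pattern. Other genes are said to be chosen after their values were seen, except those with a printed sequence. Alternatives were a pseudocount of 0.1, no filter (genes above 0 in any library), a filter at 5 FPKM, the replicate number as a block, median-of-ratios and upper-quartile scaling, leaving out each library and, added after the data were seen, limma-voom on recovered reads and ratios without 1 library. Promoter sequences are those of RefSeq on GRCm38.p6.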

Additional observations from a re-analysis of the deposited data

How the results depend on the processing

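None of the 10 chaperone genes passed an adjusted p of 0.05 in any of 13 alternatives, in which Hsph1 ranged from 0.056 to 0.29. Of 128 member values in these fits 127 were above 0, and Hsp90ab1 ranged from -0.035 (without control replicate 1) to 0.11 (without control replicate 2) without 1 library. The median log2 fold change of the 10 ranged from 0.23 to 0.39 without 1 library and was 0.42 after median-of-ratios scaling. The count of members higher at an unadjusted p under 0.05 was 8 after median-of-ratios scaling (1404 of 10776 genes tested) and after upper-quartile scaling (1288 of 10775), and ranged from 1 to 7 without 1 library; it was lowest without knockout replicate 2. Among all genes passing that level, 29.0% were higher in the unscaled fit, 58.4% under median-of-ratios and 53.3% under upper-quartile scaling, which moved the median of all genes from -0.082 to -0.0011 and -0.014. The number of genes passing an adjusted p of 0.05 in limma, 1 in the unscaled fit, was 0 with no filter (2980 at an unadjusted p under 0.05), 0 with voom (2576), 2 with the filter at 5 FPKM and 0 to 5 without 1 library. It was 0 with the replicate number as a block (2218 at an unadjusted p under 0.05), where 5 members, Hsp90aa1 in addition, were higher, against 5.92% (639) of all genes tested. Deviations of same-numbered libraries correlated at 0.065, 0.027 and -0.25. With 3 libraries per group such deviations constrain each other, so these values cannot show whether same-numbered libraries were paired. The ratio of Hspa4 to Hspa4l, 0.14 higher in knockouts on the log2 scale, ranged from -0.087 (without control replicate 2) to 0.35 (without control replicate 1). The filter at 5 FPKM removed Hsph1 and Hspa4l.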
